A study of Mus musculus with 6 samples.

Results

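Genes of G2, the spindle and mitosis were followed on 6 Affymetrix mouse arrays hybridised with RNA from C2C12 cells, mouse myoblasts that stop dividing and fuse into myotubes once serum is lowered. The list held 52 named genes, and every probe set that the platform annotation gives to 1 of them alone was kept, which made 117 of 45033 probe sets and 52 of 18192 genes. On 3 arrays the cells had received a short hairpin RNA (shRNA) against GFP, the control, and on the other 3 an shRNA to PRDM2, an enzyme that places methyl groups on histone H3. Cells of both groups had spent 28 hours in Dulbecco's modified Eagle medium with 2% horse serum. Each group's arrays are numbered 1 to 3 as biological replicates. No source used here says if the shRNA cells were pools or single clones. The comparison asks how expression in differentiating myoblasts differs when PRDM2 is targeted.

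Entry into mitosis is driven by the kinase Cdk1 bound to cyclin B, and the Aurora and Polo-like kinases then build the spindle. Kinetochores attach chromosomes to it, the spindle checkpoint holds anaphase back until they are attached, and the anaphase promoting complex with Cdc20 releases the block. Kinesins, the chromosomal passenger complex and the contractile ring then part the chromosomes and the cells. These genes are transcribed together late in the cell cycle, through the MuvB complex, B-Myb and FoxM1, and are shut off when myoblasts leave the cycle. The CHR element (core TTTGAA), bound by MuvB, and the CCAAT box, bound by NF-Y, are the known marks of their promoters.

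Those marks were found in the mouse promoters of the list. RefSeq promoter sequences of build GRCm38.p6, from 250 bases before to 50 after each annotated start, were at hand for 43 of the 52 genes, with 46 promoters. They were not at hand for Aurkb, Cdc25c, Pbk, Kif20a, Incenp, Tpx2, Smc4, Cdca2 and Foxm1. TTTGAA, read on either strand, stood in 34 of the 46 promoters, or 73.9% (exact binomial 95% interval 58.9 to 85.7), against 17.9% of all 32851 promoters in the table. CCAAT on either strand also stood in 34 of 46, or 73.9%, against 37.4% of all promoters. Bub3, Ect2 and Prc1 have 2 overlapping promoters each, which the interval counts as independent. By gene, each motif stood in 31 of the 43. Both stood in 30 of 46 (65.2%), against 6.95% of all, and at least 2 matches of CCAAT in 22 (47.8%), against 11.7%. The motifs were searched separately, and in 1 of the 46 a match of each overlapped. TTTGAA lay close to the start, with a first base within 50 bases of it in 65.2% of the promoters, against 4.94% of all. These matches describe letters in the sequence, and 8 of the 43 genes, Birc5, Kif18a, Mad2l1, Melk, Ncaph, Nuf2, Nusap1 and Pttg1, had neither motif in this window. By role, TTTGAA was found in 5 of 8 genes of kinases, cyclins and phosphatases, 7 of 11 of the kinetochore and checkpoint, 6 of 7 kinesins and 4 of 4 cytokinesis genes.

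**Figure D1:**
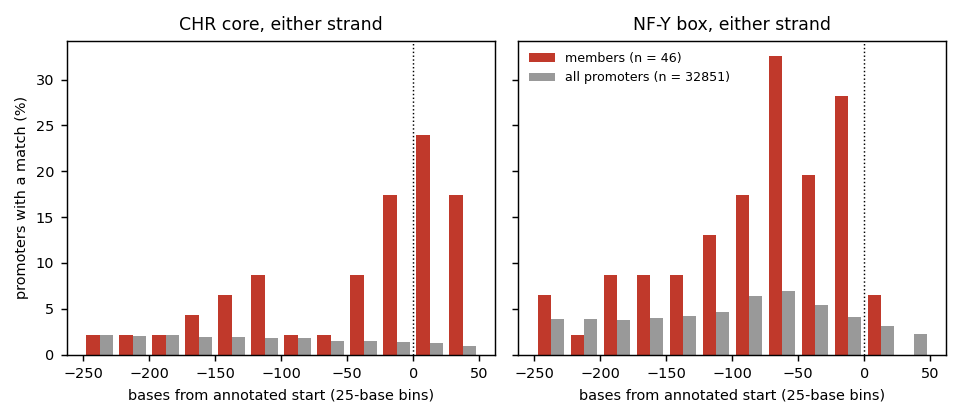
Share of promoters (%) in which a match of the CHR core (left, TTTGAA) or the NF-Y box (right, CCAAT) begins in each 25-base bin, against the distance in bases from the annotated start. Red bars are the 46 promoters of the mitosis genes and grey bars all 32851 promoters. The CHR core of the mitosis genes peaks at 23.9% in the bin just after the start and the NF-Y box at 32.6% in the bin from 75 to 51 bases before it.

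The promoters of 4 genes named in the results below are printed 5′ to 3′ on the gene's strand. Every match of TTTGAA or TTCAAA and of CCAAT or ATTGG is in capitals. All 4 hold TTTGAA, and none of these genes passed the test for a difference between the groups. Cdk1, the entry kinase, lies on the minus strand (chr10:69352863-69353162) and has TTTGAA beginning 71 and 15 bases before the start, among 3 CCAAT boxes read as ATTGG. Kif23 (chr9:61946750-61947049, minus strand) has TTTGAA 2 bases after the start and an inverted CCAAT box 7 bases before it. Cdca3 (chr6:124829926-124830225, plus strand) has TTTGAA 30 bases after the start and CCAAT boxes 104, 71 and 4 bases before it. Anln (chr9:22389157-22389456, minus strand) has TTCAAA and TTTGAA 21 and 28 bases after the start and no CCAAT box.
Cdk1: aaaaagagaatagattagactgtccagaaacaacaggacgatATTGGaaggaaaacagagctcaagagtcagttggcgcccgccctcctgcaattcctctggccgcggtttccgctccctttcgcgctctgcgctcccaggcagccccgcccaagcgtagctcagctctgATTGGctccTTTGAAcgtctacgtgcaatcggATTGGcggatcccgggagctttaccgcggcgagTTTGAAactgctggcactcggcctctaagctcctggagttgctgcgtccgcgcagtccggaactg
Kif23: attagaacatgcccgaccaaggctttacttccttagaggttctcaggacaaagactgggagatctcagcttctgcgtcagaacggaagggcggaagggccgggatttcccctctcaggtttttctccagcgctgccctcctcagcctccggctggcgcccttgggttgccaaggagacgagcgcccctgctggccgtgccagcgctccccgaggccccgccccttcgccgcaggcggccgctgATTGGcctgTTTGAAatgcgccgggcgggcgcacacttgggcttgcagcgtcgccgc
Cdca3: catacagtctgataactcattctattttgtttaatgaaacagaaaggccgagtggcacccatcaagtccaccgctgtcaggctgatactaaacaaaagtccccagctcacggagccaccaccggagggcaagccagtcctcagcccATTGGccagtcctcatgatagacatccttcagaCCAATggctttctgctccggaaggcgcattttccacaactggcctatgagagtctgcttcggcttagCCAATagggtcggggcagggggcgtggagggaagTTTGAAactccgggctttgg
Anln: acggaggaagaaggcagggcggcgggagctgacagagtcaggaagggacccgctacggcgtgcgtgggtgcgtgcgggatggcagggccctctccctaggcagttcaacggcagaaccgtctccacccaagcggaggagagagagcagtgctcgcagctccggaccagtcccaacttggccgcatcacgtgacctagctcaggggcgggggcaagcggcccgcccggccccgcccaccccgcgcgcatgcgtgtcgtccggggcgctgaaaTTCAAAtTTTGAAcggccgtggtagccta

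The deposited arrays were alike in brightness, with median intensities between 10.7 and 11.4 units. Values below are log2(intensity + 16) after quantile normalization, a scale whose floor is 4 and whose median probe set reads 4.76. Myocyte markers were bright, with 21 of 21 above that median and list means between 10.1 and 10.7. Most markers of macrophages, endothelium and adipocytes were dim, with 2 of 6, 1 of 6 and 1 of 5 above it. Of the neuron markers 4 of 7 lay above it, and Nefl reached 9.17 in control replicate 1. Prdm2 itself was not lower on the PRDM2 shRNA arrays, at a log2 fold change of 0.15 (SE 0.19, adjusted p = 1 with limma), so every direction rests on the labels. Control replicate 2 stood apart from the other controls and close to knockdown replicate 2. Over the 52 genes, the median absolute difference between those arrays was 0.0552 log2 units, against 0.238 and 0.267 from control replicates 1 and 3. Results are therefore also given without control replicate 2 where that matters. The array was picked from these same values, so p-values of the fit without it are descriptive only. That fit keeps knockdown replicate 2, so a level shared by the arrays numbered 2 then enters the difference between the groups.

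No mitosis gene passed the test for a difference between the groups. Of the 117 probe sets 0 reached an adjusted p of 0.05 (limma, Benjamini-Hochberg over all probe sets), where 0% of all 45033 did. At an unadjusted p under 0.05 there was 1 of 117, while 2.94% of all probe sets reached it, and so the count among the mitosis genes was no higher than elsewhere. Each gene is represented from here on by its probe set of highest mean unless another is named. Of the 52 genes 29 were higher and 23 lower on the PRDM2 shRNA arrays, beside 48.8% higher over all genes. Their median log2 fold change was 0.02, with a range from -0.30 to 0.38, and the median over all 18192 genes was -0.0033.

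With all 6 arrays taken as labelled, the intervals bounded most of these differences. For 40 of the 52 genes the 95% interval of the log2 fold change lay within a 1.5-fold change either way (0.58 on the log2 scale). It did so for 83.4% of all genes and for 74.9% of those at or above the median probe set. These bounds are those of this fit, and some differences were larger without control replicate 2, as given below. For 51 of 52 it lay within a 2-fold change, Smc4 being the exception. The intervals are those of single genes, with no adjustment for their number. The interval was narrowest for Tpx2, which targets Aurora A to the spindle, running from -0.12 to 0.21. In bulk RNA, fewer dividing cells and less RNA per dividing cell cannot be told apart.

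**Figure D2:**
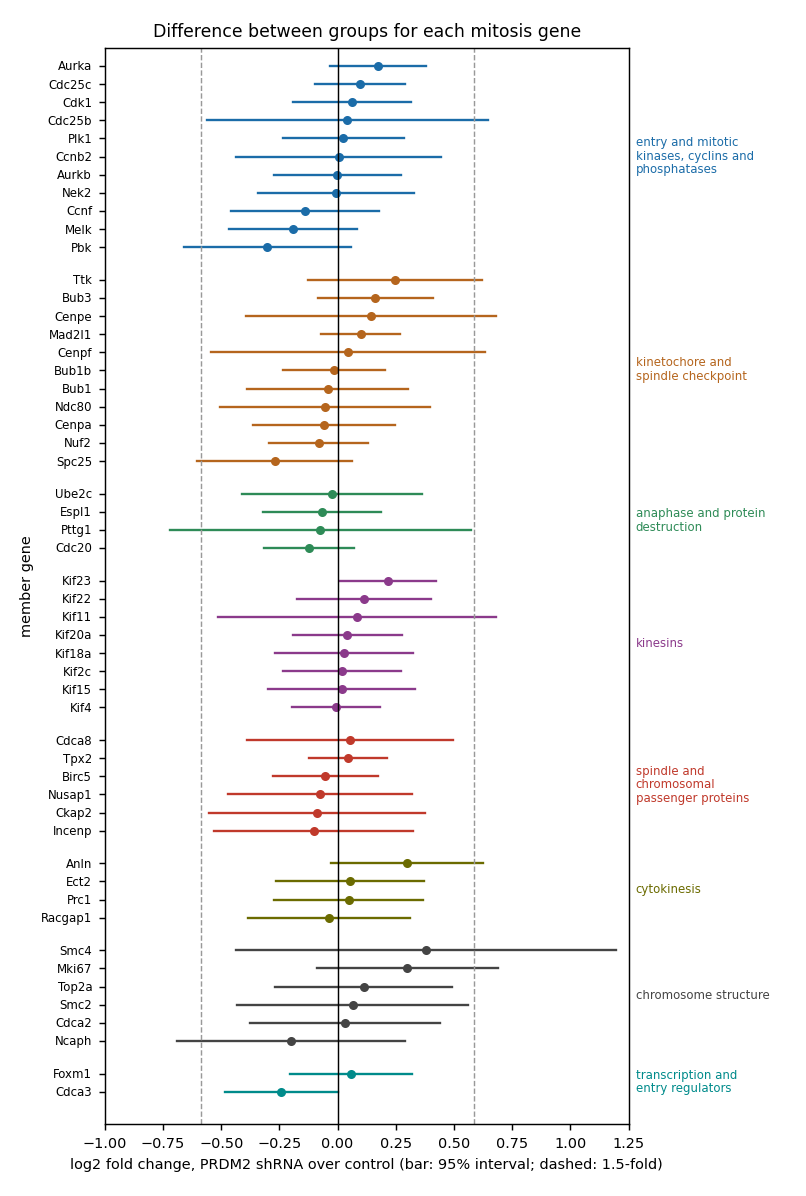
Log2 fold change (PRDM2 shRNA over control, 3 arrays each) of each of the 52 mitosis genes, by role, on the horizontal axis. Points are limma estimates, bars their 95% intervals, and dashed lines mark 1.5-fold. Estimates run from -0.30 (Pbk) to 0.38 (Smc4), and 51 of the 52 intervals lie within 2-fold either way.

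Kinases, cyclins and phosphatases of mitotic entry were split, with 6 of 11 genes higher and 5 lower, a median of 0.0042 and 0 past the threshold. Cdk1, the kinase that starts mitosis, read 9.22, 8.97 and 9.24 in controls and 9.19, 9.10 and 9.34 in knockdowns, always in the order of replicates 1, 2 and 3. The groups overlapped, at 9.15 ± 0.15 and 9.21 ± 0.12 (SD, n = 3 each), and the log2 fold change was 0.06 (SE 0.11). Plk1, the Polo-like kinase, read 7.90, 7.94 and 7.61 in controls and 7.74, 7.87 and 7.90 in knockdowns, again overlapping, at 0.02 (SE 0.11). Ccnb2, a B-type cyclin that activates Cdk1, had a difference of 0.0042 (SE 0.18).

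The Aurora kinases of this group are given apart, and no test compared them with each other. Aurka, which matures centrosomes and the spindle poles, read 7.03, 7.27 and 7.18 in controls and 7.27, 7.34 and 7.39 in knockdowns. Its groups almost touched without overlapping, and the difference was 0.17 (SE 0.09, adjusted p = 1). A second probe set of Aurka, near the floor, stood at 0.05 (SE 0.07). Aurkb, the kinase of the chromosomal passenger complex, read 6.95, 6.97 and 7.14 in controls and 6.97, 6.87 and 7.23 in knockdowns, at -0.0011 (SE 0.11). Pbk, a mitotic kinase, had the lowest value of all 52 genes, -0.30 (SE 0.15, adjusted p = 1). It read 8.23, 7.82 and 8.38 in controls and 7.76, 7.82 and 7.96 in knockdowns, and control replicate 2 lay among the knockdown arrays. Melk, a kinase of dividing cells, stood at -0.19 (SE 0.12) and Ccnf, an F-box cyclin, at -0.14 (SE 0.13). The phosphatases Cdc25b and Cdc25c, which activate Cdk1, stood at 0.04 (SE 0.25) and 0.10 (SE 0.08), and Nek2, a centrosome kinase, at -0.0077 (SE 0.14).

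Kinetochore and checkpoint genes were split too, with 5 of 11 higher, 6 lower, a median of -0.01 and 0 past the threshold. Bub1, a checkpoint kinase, read 7.15, 7.35 and 7.68 in controls and 7.29, 7.28 and 7.48 in knockdowns, the controls spanning the knockdowns, at -0.04 (SE 0.14). Bub1b and Bub3, which act in the same checkpoint, stood at -0.01 (SE 0.09) and 0.16 (SE 0.10). Mad2l1, the checkpoint protein that holds Cdc20, stood at 0.10 (SE 0.07), its groups almost touching without overlap. Ttk, the checkpoint kinase Mps1, stood at 0.25 (SE 0.16).

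Within the Ndc80 complex, which grips microtubules, the 3 subunits on the list were on the lower side by their brightest probe sets, and the remaining subunit, Spc24, stood at 0.13 (SE 0.17). Spc25 read 7.98, 7.59 and 8.07 in controls and 7.50, 7.58 and 7.74 in knockdowns, at -0.27 (SE 0.14, adjusted p = 1). As for Pbk, control replicate 2 lay within the knockdown range, and a dim second probe set stood at 0.02. Ndc80 and Nuf2 stood at -0.05 (SE 0.19) and -0.08 (SE 0.09). Of the centromere proteins, Cenpa, the histone variant that marks centromeres, stood at -0.06 (SE 0.13). Cenpe, a kinetochore kinesin, stood at 0.14 (SE 0.22) and Cenpf at 0.04 (SE 0.25).

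Genes of anaphase and protein destruction were on the lower side by their brightest probe sets, 4 of 4, with a median of -0.07 and 0 past the threshold. Cdc20, the activator of the anaphase promoting complex, read 9.13, 8.99 and 9.10 in controls and 8.86, 9.04 and 8.95 in knockdowns, overlapping, at -0.12 (SE 0.08). Its other 2 probe sets stood at -0.07 (SE 0.14) and -0.06 (SE 0.12). Ube2c, the ubiquitin-conjugating enzyme of that complex, read 8.18, 7.98 and 8.40 in controls and 7.99, 8.04 and 8.46 in knockdowns, at -0.02 (SE 0.16). Espl1, the separase that cuts cohesin, stood at -0.07 (SE 0.11), and its inhibitor securin, Pttg1, also at -0.07 (SE 0.27). The other 2 probe sets of Pttg1 stood at 0.03 and 0.14. Its brightest stood at 0.19 without control replicate 2, and at -0.02 without both arrays numbered 2.

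Kinesins, the spindle motors, had 7 of 8 genes above 0, a median of 0.03 and 0 past the threshold. Kif23, a motor of the central spindle, was the only gene of the 52 with an unadjusted p under 0.05 (0.043, adjusted p = 1 with limma). It read 6.96, 7.13 and 7.13 in controls and 7.33, 7.18 and 7.35 in knockdowns, without overlap, at 0.22 (SE 0.09). Its other 2 probe sets stood at 0.13 (SE 0.11) and, close to the floor, 0.05 (SE 0.08). Kif11, the motor that pushes spindle poles apart, read 6.35, 6.06 and 6.81 in controls and 6.54, 6.08 and 6.85 in knockdowns. Its spread within each group, 0.38 and 0.39 (SD), exceeded the difference of 0.08 (SE 0.25). Kif4, the chromokinesin, had a difference of -0.0070 (SE 0.08). Kif15 lay under the median probe set on every array, between 4.11 and 4.49, so the offset of 16 compresses its difference. The rest (Kif20a, Kif2c, Kif18a and Kif22) ran from 0.02 to 0.11.

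Chromosomal passenger and spindle genes had 2 of 6 on the higher side, a median of -0.06 and 0 past the threshold. Birc5 (survivin), a passenger subunit, read 8.44, 8.62 and 8.55 in controls and 8.34, 8.53 and 8.58 in knockdowns, at -0.05 (SE 0.09). Incenp, the scaffold of the complex, read 7.88, 8.26 and 7.81 in controls and 7.71, 8.21 and 7.71 in knockdowns, at -0.10 (SE 0.18). Cdca8 (borealin) stood at 0.05 (SE 0.19). Both groups of Birc5 and of Incenp overlapped. The microtubule proteins Nusap1 and Ckap2 stood at -0.07 (SE 0.17) and -0.09 (SE 0.19).

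Among cytokinesis genes 3 of 4 had a positive difference, the median being 0.05 and 0 past the threshold. Anln (anillin), a scaffold of the contractile ring, read 8.48, 8.98 and 8.64 in controls and 8.93, 8.96 and 9.11 in knockdowns, at 0.30 (SE 0.14, unadjusted p = 0.066, adjusted p = 1 with limma). Control replicate 2 again lay inside the knockdown range, and its dimmer probe set stood at 0.09 (SE 0.09). Racgap1, the partner of Kif23 in the centralspindlin complex, stood at -0.04 (SE 0.15), against 0.22 for Kif23. Ect2, which activates RhoA at the cell equator, and Prc1, which bundles midzone microtubules, both stood at 0.05 (SE 0.13 each).

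Chromosome structure genes had 5 of 6 on the higher side, a median of 0.09 and 0 past the threshold. Mki67, which coats mitotic chromosomes and marks dividing cells, read 8.40, 8.50 and 8.71 in controls and 8.87, 8.53 and 9.12 in knockdowns, at 0.30 (SE 0.16). The groups overlapped through knockdown replicate 2. Top2a, which untangles DNA, read 9.26, 9.00 and 9.37 in controls and 9.41, 9.03 and 9.53 in knockdowns, at 0.11 (SE 0.16).

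The condensin subunits, which compact chromosomes, did not share a direction. Smc4 had the highest value of the 52 genes, 0.38 (SE 0.34, 95% interval -0.43 to 1.19), with 8.08, 8.45 and 9.16 in controls and 9.23, 8.36 and 9.24 in knockdowns. Control replicate 1 was low and knockdown replicate 1 high, a difference of 1.15 within number 1, while numbers 2 and 3 gave -0.09 and 0.08. The other 2 probe sets of Smc4 showed the same low array, at 7.84 against 8.43 and at 5.44 against 6.24 within number 1. Smc2, its partner, stood at 0.07 (SE 0.21), and Ncaph, the kleisin of condensin I, at -0.20 (SE 0.20). Cdca2, a phosphatase partner on chromosomes, stood at 0.03 (SE 0.17).

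Foxm1, the transcription factor that drives late cell cycle genes, read 5.69, 5.60 and 5.77 in controls and 5.82, 5.54 and 5.88 in knockdowns, at 0.06 (SE 0.11). Cdca3, which promotes mitotic entry, was the only gene of the 52 that was lower without overlap. It read 7.65, 7.51 and 7.67 in controls and 7.19, 7.48 and 7.44 in knockdowns, at -0.24 (SE 0.10, unadjusted p = 0.051, adjusted p = 1 with limma). Of its 3 probe sets only this one lay at or above the median probe set, and 1 of the dim ones stood at 0.02. In all, 3 of the 52 genes (Aurka, Mad2l1 and Kif23) were higher without overlap, beside 2.93% of all genes, and 1 was lower, beside 4.24%.

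**Figure D3:**
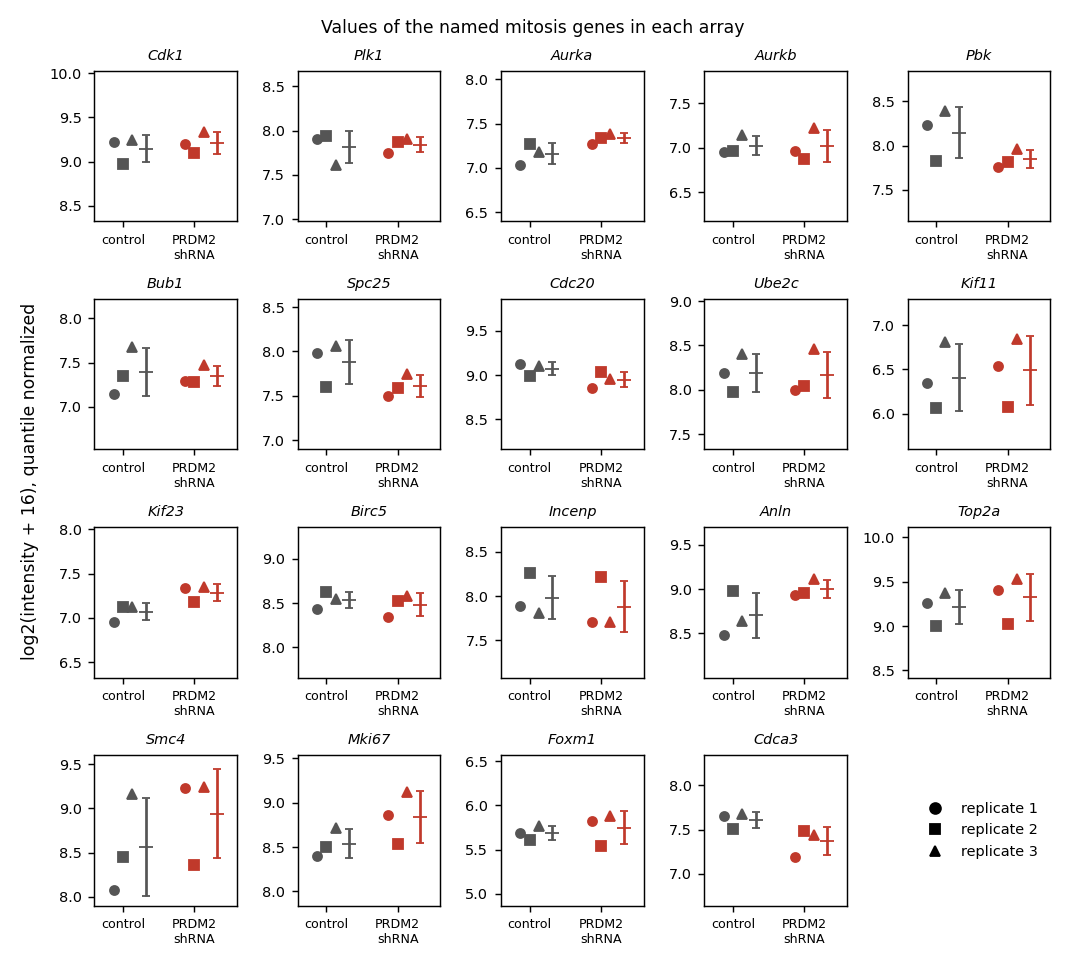
Values, log2(intensity + 16) after quantile normalization, of the 19 mitosis genes whose readings are given array by array. Circles, squares and triangles are replicates 1, 2 and 3, and bars give the group mean ± SD (n = 3); every panel spans 1.7 log2 units. Control and PRDM2 shRNA arrays overlap in each panel but those of Aurka, Kif23 and Cdca3.

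Over the 52 genes, arrays of the same replicate number resembled each other, with median absolute differences of 0.149, 0.0552 and 0.0920 for numbers 1, 2 and 3. Pairs of other numbers ranged from 0.166 to 0.278. Over the 11259 brightest probe sets this did not hold for number 1. There the scaled median absolute deviation of the differences was 0.309, 0.0758 and 0.199 within numbers 1, 2 and 3. It was 0.216 between control replicates 1 and 3, and 0.205 between knockdown replicates 1 and 3. Within numbers, 11 of 52 genes were higher on the knockdown array in all 3, beside 14.5% of all genes, and 7 were lower in all 3, beside 16.5%. With the replicate number as a block, 0 of 117 probe sets passed (0% of all), and 7 had an unadjusted p under 0.05 beside 7.84% of all probe sets.

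The order of the numbers differed by gene. Both arrays numbered 1 lay below the other 4 in 15 of the 52 genes (28.8%, against 10.1% of all genes), among them Cenpa, Birc5, Tpx2, Prc1 and Racgap1. Both arrays numbered 3 lay above the other 4 in 15 genes (28.8%, against 10.1%), among them Bub1, Aurkb, Ube2c and Ckap2. Cenpf, Kif20a and Nusap1 did both. Both arrays numbered 2 lay above the other 4 in 8 genes (15.4%) and below them in 10 (19.2%). Over all genes these shares were 18.1% and 19.3%, and over genes at or above the median probe set 23.1% and 21.5%. So neither was more frequent in the list than elsewhere. Pttg1 was highest in the arrays numbered 2, at 10.26 and 10.08 against 9.36 to 9.57 elsewhere, and Cdc25b read 7.50 and 7.54 against 6.77 to 6.95. Kif11, Cenpe, Ndc80, Smc2, Top2a and Ncaph were lowest in these arrays, with Kif11 at 6.06 and 6.08 against 6.35 to 6.85. These orders are those of the brightest probe sets. Of the 12 such genes with other bright probe sets 5 (Incenp, Cdca8, Cenpe, Smc2 and Foxm1) had at least 1 of opposite sign, as in Cenpe at -0.52 and 0.36 and in Smc2 at -0.43 and 0.49 (arrays numbered 2 minus the other 4).

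**Figure D4:**
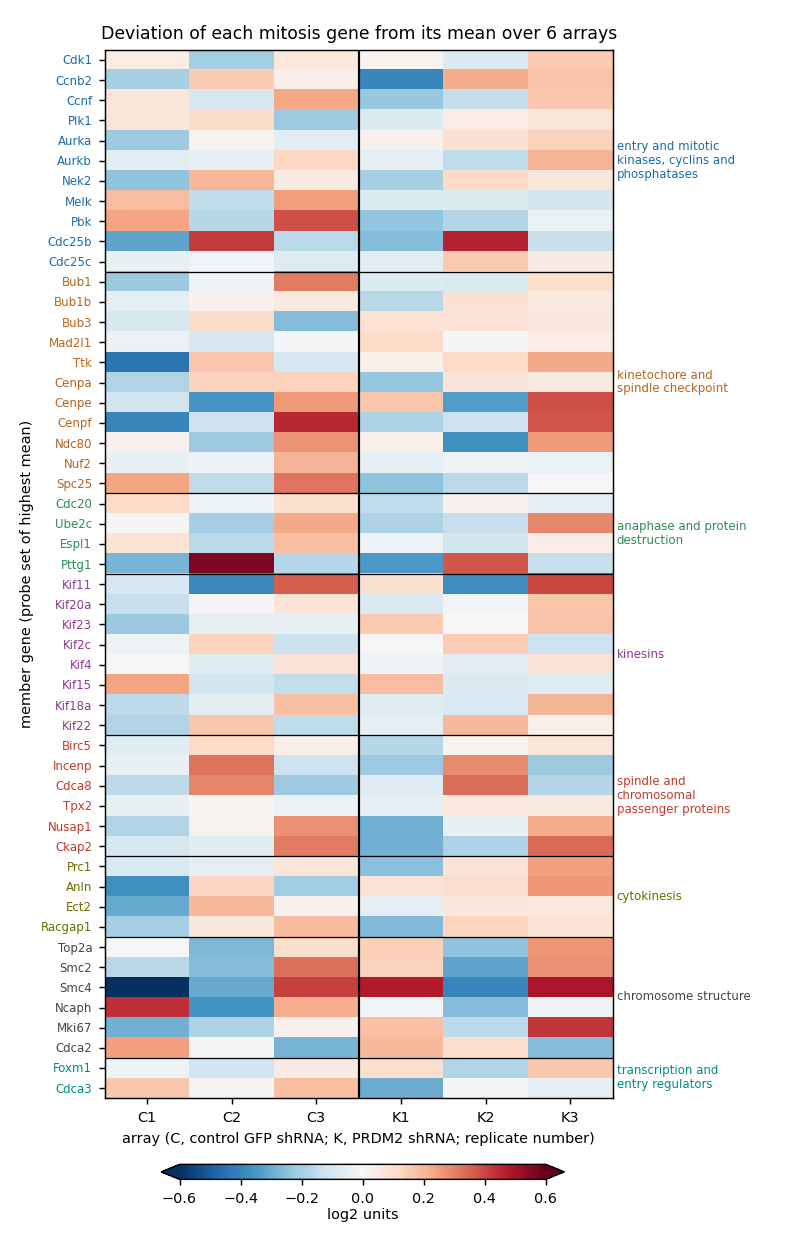
Deviation (log2 units, colour) of each of the 52 mitosis genes (rows, grouped by role) from its own mean over the 6 arrays (columns; C, control; K, PRDM2 shRNA). The column pairs C2 and K2, and C3 and K3, look alike; Pttg1 and Cdc25b are high in C2 and K2, and Kif11 and Cenpe are low there.

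Averaged over the 52 genes, the deviation from each gene's mean was -0.08, -0.02 and 0.08 in controls and -0.06, -0.02 and 0.11 in knockdowns. S phase genes, 31 of 32 measured, varied more and in another order, at 0.37, -0.31 and 0.16 in controls and 0.06, -0.31 and 0.03 in knockdowns. Of them 27 were on the lower side and 4 on the higher, with a median of -0.17 and 0 past the threshold. Without control replicate 2 the median was -0.37, again with 0 past it. Rfc5, a clamp loader subunit, stood at -0.27 (SE 0.10), and Tk1, thymidine kinase, at 0.43 (SE 0.16). Myocyte markers were low in control replicate 1, at -0.42, and lay between 0.0088 and 0.12 in the other 5 arrays. Of these 21 markers 19 had a positive difference, the median being 0.17 and 0 past the threshold. The smallest p were those of Tnnt3, a fast troponin, at 0.39 (SE 0.19), and Mef2c, a muscle transcription factor, at 1.05 (SE 0.52). Without control replicate 2, 1 of the 21 passed, Mef2c at 1.68 (adjusted p = 0.0464 with limma). Myod1 and Myog, the myogenic regulators, stood at 0.03 (SE 0.12) and 0.10 (SE 0.14). Levels of the 7 neuron markers varied too, with list means of 6.25, 5.31 and 6.05 in controls and 5.16, 5.31 and 5.20 in knockdowns. Bright markers of this list went both ways. Nefl, a neurofilament, and Tubb3, a tubulin, stood at -3.16 (SE 1.21) and -2.17 (SE 0.81), and Stmn2, a microtubule regulator, at 1.04 (SE 0.46), none past the threshold. Without control replicate 2 all 3 passed, at -4.72, -3.19 and 1.62 (adjusted p = 0.00206, 0.0113 and 0.0144 with limma). Nefl read 9.17, 4.18 and 8.50 in controls and 4.13, 4.06 and 4.16 in knockdowns, so that control replicate 2 was close to the knockdown level. Leaving out a control at that level widens the difference by itself. Among the defining markers, Rbfox3, Snap25 and Syt1 lay under the median probe set, and 4 of the 7 were lower in knockdowns. What these shifts contribute to the mitosis genes was not tested.

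**Figure D5:**
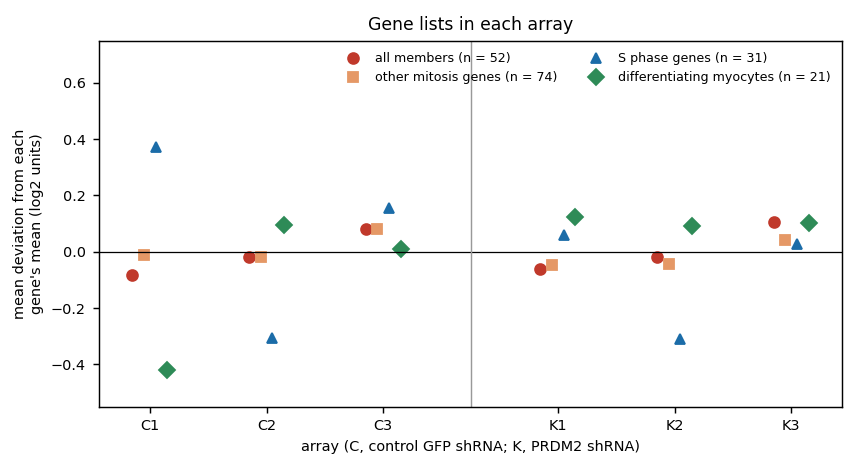
Mean deviation (log2 units) from each gene's own mean over 6 arrays, per array, for the 52 mitosis genes (circles), other mitosis genes (squares), S phase genes (triangles) and myocyte markers (diamonds). Mitosis genes stay between -0.08 and 0.11, S phase genes reach 0.37 in C1 and -0.31 in C2 and K2, and myocyte markers are lowest in C1 at -0.42.

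In a wider list of mitosis genes outside the 52, none passed either. Of 82 names 74 were measured, 35 higher and 39 lower, with a median of -0.01 and 0 past the threshold. At an unadjusted p under 0.05, 5 of the 74 were lower and 0 higher, while 2.37% of all genes and 0 of the 52 were lower at that level. The smallest p were those of Troap, a spindle protein, at -0.31 (SE 0.08), and Stmn1 (stathmin), which destabilises microtubules, at -0.39 (SE 0.11), both with an adjusted p of 1. The cyclin Ccna2 stood at 0.06 (SE 0.08). MuvB, DREAM and NF-Y genes, the regulators of these promoters, had 7 of 16 higher, a median of -0.03 and 0 past the threshold. Among them Tfdp2, an E2F partner, stood at 0.14 (SE 0.12) and Nfyb, an NF-Y subunit, at 0.09 (SE 0.09). Subunits of the anaphase promoting complex had 5 of 14 higher and a median of -0.04, with 0 past the threshold. Its smallest p were those of Anapc7 and Anapc5, at -0.22 (SE 0.11) and -0.19 (SE 0.09).

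Leaving out control replicate 2 brought no mitosis gene past the threshold. Of all probe sets 238 (0.529%) then passed, and 0 of the 117. At an unadjusted p under 0.05 there were 11 of 117, beside 10.2% of all. Pbk came nearest, at -0.46 (SE 0.10, adjusted p = 0.156 with limma), followed by Anln at 0.44 (SE 0.10, adjusted p = 0.176). Spc25 stood at -0.41 (SE 0.10), Melk at -0.31 (SE 0.08) and Ttk at 0.39 (SE 0.13). The brightest probe sets of Ncaph gave -0.43 (SE 0.12) and -0.39 (SE 0.10). The median over the 52 genes was 0.0011. Role group medians then lay between -0.15 for anaphase genes and 0.10 for cytokinesis genes, and that of spindle and passenger genes turned from -0.06 to 0.01. In that role group Incenp and Cdca8 stood at 0.03 and 0.21 without control replicate 2. They stood at -0.13 and 0.06 without both arrays numbered 2. With both arrays numbered 2 left out and the replicate number as a block, 717 probe sets passed (1.59%) and again 0 of the 117. There, 13 of 117 had an unadjusted p under 0.05, beside 13.3% of all, and Anln and Pbk stood at 0.46 and -0.45 (adjusted p = 0.0912 and 0.0971 with limma).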

How the data were processed

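Expression was measured in 6 samples, each of total RNA (8 ug) on 1 Affymetrix mouse array, grouped by title. The deposited table holds linear intensities per probe set, made by the authors with GCOS and PLIER, per the submitters' processing notes, which give no version, role or order. No source used here states how the arrays were normalized. Of 45101 probe sets 64 controls were left out, and 4 that held their gene's Entrez number in place of an intensity in 1 column. Gene names came from the platform annotation.

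Values were taken as log2(intensity + 16), so folds of dim genes are understated, and quantile normalized. The group comparison used limma 3.58.1 (R 4.3.3) on all 45033 probe sets (lmFit, eBayes, two-sided, no block), Benjamini-Hochberg adjusted, threshold 0.05. The script was tested on simulated data. The precision is limited by 3 arrays a group, and an exact permutation test of 3 against 3 cannot go below 0.10. Nothing beyond the term biological replicate says the arrays came from separate cultures. If they did not, p-values measure technical spread.

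Members, role groups and lists were chosen with earlier results of these data known. Array values were given for 13 fixed genes, members with an unadjusted p under 0.05, the 2 highest and 2 lowest, and the largest of each role group. Others are named by range or as examples, chosen after their values were seen. Deviations from the group means of same-numbered arrays correlated at 0.32, 0.60 and 0.62 over all probe sets, above the 0.1 set for pairing, so the block is a paired fit. Deviations within a group cancel out, so these correlations are not independent of each other. The pairing comes from the data. No detection calls were at hand. Alternatives covered scaling, offset, dim probe sets, probe set choice, variance model, array weights, the block, left-out arrays and the promoter window.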

Additional observations from a re-analysis of the deposited data

How the results depend on the processing

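Over the 18 alternatives, 0 of the mitosis probe sets passed in any, 0 of the 19 genes given array by array were called and 10 of the 19 kept their sign throughout. The count over all probe sets was 0 with all 6 arrays, 0 with the replicate block, and ranged from 0 to 238 as single arrays were left out, the 238 being without control replicate 2. With both arrays numbered 2 left out it was 57, or 717 with the replicate block. The block changed no other call. The median of the 52 genes ranged from -0.04 to 0.07. With single arrays left out, the medians of 2 role groups moved by more than their spread between arrays, from -0.10 (without control replicate 1) to 0.084 for kinases, cyclins and phosphatases, and from -0.082 to 0.12 (without knockdown replicate 2) for kinetochore genes. Signs turned for 9 genes of small difference. Leaving out single arrays gave ranges of -0.024 to 0.12 for Cdk1, -0.079 to 0.085 for Plk1, -0.10 to 0.075 for Aurkb, -0.17 to 0.10 for Bub1, -0.17 to 0.083 for Ube2c, -0.10 to 0.29 for Kif11, -0.10 to 0.020 for Birc5, -0.0074 to 0.16 for Foxm1 and -0.27 to 0.034 for Incenp. Aurkb turned to 2.3e-04 with an offset of 64 and to 0.047 without both arrays numbered 2, with or without the replicate block. Foxm1 turned to -0.012 with the mean of its probe sets and Kif11 to -0.010 with array weights. In the 250 bases before the start alone, TTTGAA stood in 41.3% of the promoters, since many matches lie after the start, and CCAAT still in 73.9%. Of all promoters 15.99% and 33.85% held them in that window. Folds near the floor of 4 are limited by signal over background. The cause of the other shifts was not tested.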

Other observations

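Probe sets of 1 gene did not always tell the same story. Of the 52 genes 34 had several probe sets, and 28 had several at or above the median probe set. In 9 of these 28 the brighter probe sets differed in sign between the groups, namely Cdc25c, Bub1b, Cenpa, Pttg1, Cdca8, Tpx2, Prc1, Racgap1 and Foxm1, with values between -0.11 and 0.14. The pattern of the arrays numbered 2 also depended on the probe set for 5 of 12 genes, Incenp, Cdca8, Cenpe, Smc2 and Foxm1. The brightest probe set of Incenp lay 0.45 log2 units higher in those arrays than in the other 4, while its other 2 bright probe sets lay lower, at -0.30 and -0.53. The brightest probe set of Cdca8 lay 0.47 higher, and its others at -0.08 and -0.28. On the low side, the brightest probe sets of Cenpe, Smc2 and Foxm1 lay at -0.52, -0.43 and -0.22, and another of each at 0.36, 0.49 and 0.10. For Pttg1 the 3 bright probe sets all lay higher, by 0.70, 0.23 and 0.09. Affymetrix marks with the endings _x_at and _s_at those probe sets that may bind transcripts of more than 1 gene. Probe sets ending in _a_at were counted with the plain ones here. Of the 8 genes whose arrays numbered 2 lay above the others, 6 were represented by such a probe set, of the 10 whose arrays numbered 2 lay below them 1 was, and of the remaining 33 bright genes of the list 6 were. Over all genes at or above the median probe set the shares were 12.8%, 12.1% and 10.4%, so the split of the list was not seen there. What these endings contribute was not tested.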
